A study of Arabidopsis thaliana with 8 samples.

Results

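The genes AT3G04210 and AT5G05400 of Arabidopsis thaliana (thale cress) encode proteins of the nucleotide-binding site (NBS) class of plant immune receptors, a TIR-NBS protein and an NBS-LRR protein. Each has 1 row to itself, and they are 2 of 692 rows that the array annotation gives to a single gene, in a table of 3439 rows. The pair was chosen because the signals of these genes differed in opposite directions between the ages in these same data. Their difference between the ages is therefore given below as a description, without a test, and supports nothing by itself.

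Signals were measured in total RNA of wild-type plants of the Columbia 0 ecotype, in 4 samples of 4-week-old plants and 4 samples of 1-week-old plants, each numbered 1 to 4. The series compared these ages, and no treatment or mutation is named for either. The labels do not say which organs were taken and whether separate plants gave the numbered samples. The spread behind the p-values below is that between the numbered samples and may be technical. Precision is limited by having 4 arrays per age.

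Receptors of the NBS class, also called NLR proteins, sit inside plant cells and detect the effectors of pathogens or the changes those effectors cause. The nucleotide-binding region acts as a switch, and the leucine-rich repeats (LRR) of most members help to sense the trigger and keep the receptor off. A TIR domain at the start of the protein is an enzyme that breaks down NAD and makes signal molecules read by EDS1 and its partners. TIR-NBS proteins such as AT3G04210 lack the leucine-rich repeats. AT3G04210 is known as TN13, a partner of the nuclear import receptor MOS6 that contributes to resistance against Pseudomonas syringae.

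The deposited signal of AT3G04210 was 0.629, 0.664, 0.862 and 0.761 in samples 1 to 4 of the 4-week-old plants. In samples 1 to 4 of the 1-week-old plants it was 0.0750, 0.106, 0.175 and 0.168. Every 4-week sample lay above every 1-week sample, with a wide gap between the ages. The means were 0.729 ± 0.105 at 4 weeks and 0.131 ± 0.0484 at 1 week (SD, n = 4 each), in the arbitrary units of the deposited table. On the log2 scale after normalization between arrays the difference, 4 weeks minus 1 week, was 2.43 (SE 0.28), which is a 5.39-fold higher signal at 4 weeks.

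AT5G05400, an NBS-LRR receptor gene on chromosome 5, showed the opposite order. Its deposited signal was 0.199, 0.211, 0.185 and 0.233 in samples 1 to 4 of the 4-week-old plants. In samples 1 to 4 of the 1-week-old plants it was 1.46, 1.35, 2.08 and 1.91. All samples of the older plants lay below all samples of the younger ones. The means were 0.207 ± 0.0203 at 4 weeks and 1.70 ± 0.350 at 1 week (SD, n = 4 each). The normalized log2 difference was −3.05 (SE 0.15), and the signal at 1 week was 8.26-fold that at 4 weeks on this scale.

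**Figure D1:**
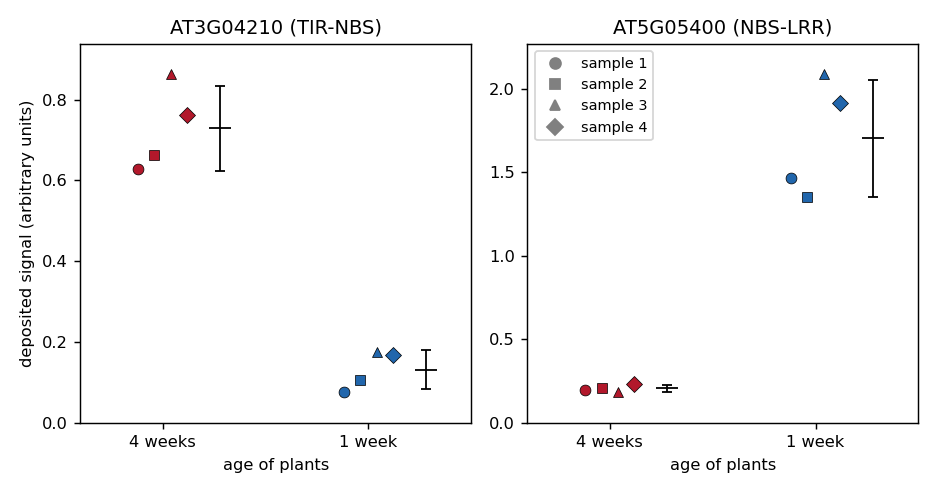
Deposited signal (arbitrary units) of AT3G04210 and AT5G05400 in the 4 samples of 4-week-old plants (left) and the 4 samples of 1-week-old plants (right), 1 symbol per sample number, with mean and SD beside the points. The signals of AT3G04210 lie between 0.629 and 0.862 at 4 weeks and between 0.0750 and 0.175 at 1 week, and those of AT5G05400 between 0.185 and 0.233 at 4 weeks and between 1.35 and 2.08 at 1 week.

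In bulk RNA, fewer cells that express a gene and less of its RNA per cell cannot be told apart, and this holds for every difference given here. Differences between the ages were common on this array. Of 2924 rows tested by limma, 45.7% differed at an adjusted p under 0.05 (44.6% of the 588 tested rows that name a single gene), with 25.3% higher and 20.4% lower at 4 weeks. This share is 1337 rows. When samples 1 and 2, and likewise 3 and 4, of an age were averaged before the fit, 400 rows were called. The samples of the ages did not overlap in 46.7% of the 2924 rows. Among them, AT3G04210 held rank 21 of the rises and rank 4 among rows naming a single gene. AT5G05400 held rank 30 of the falls and rank 5 among rows naming a single gene. A signal 4-fold or more higher at 4 weeks occurred in 1.44% of the rows, and one 4-fold or more lower in 3.69%. The log2 differences of the receptor genes, which were chosen for them, lay 5.48 apart. The quartiles of all tested rows were −0.40 and 0.58 around a median of 0.16.

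**Figure D2:**
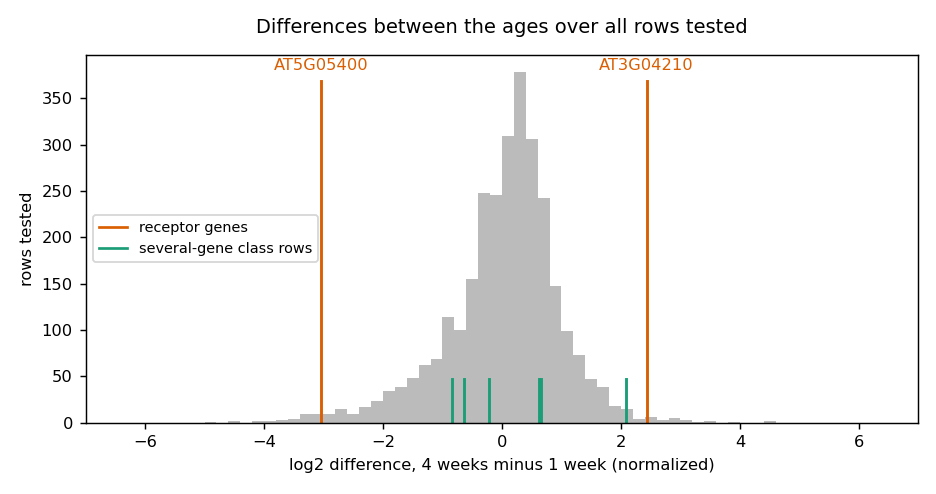
Number of rows tested (2924 in all) by normalized log2 difference, 4 weeks minus 1 week, with the receptor genes as tall lines and 6 other rows of the NBS and TIR class, each naming several genes, as short lines. AT3G04210 at 2.43 and AT5G05400 at −3.05 lie in the tails, as genes chosen for their differences would. Of the 6 other rows, 5 lie between −0.83 and 0.65. AT1G72890, a further TIR-NBS gene with a row of its own, was not in this fit and is not drawn.

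Both genes changed place within the range of array signals. Within single samples, between 63.8% and 75.6% of the signals above 0 were lower than that of AT3G04210 at 4 weeks, against between 5.35% and 16.7% at 1 week. For AT5G05400 between 13.6% and 18.9% of the signals above 0 were lower at 4 weeks, against between 88.6% and 93.7% at 1 week. A row's signal also depends on its probe, so these shares give the place of a spot among spots and do not rank transcripts.

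The relative spread between samples was wider on the dim side for AT3G04210 only. Its coefficient of variation was 14.4% at 4 weeks and 37.0% at 1 week, while that of AT5G05400 was 9.81% at 4 weeks, where it was dim, and 20.6% at 1 week. After normalization the pooled SD within an age on the log2 scale was 0.43 for AT3G04210 and 0.20 for AT5G05400. The median of this SD was 0.39 among the rows of the lowest signal tercile and 0.21 among those of the highest. At 1 week 85.8% of tested rows had a smaller log2 SD than AT3G04210.

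Within an age the samples were not alike in all pairs. Over the rows measured in all samples, the correlation was 0.938 to 0.957 within samples 1 and 2 or within samples 3 and 4 of an age, and 0.862 to 0.901 between these pairs of samples. No label explains this. AT3G04210 was higher in samples 3 and 4 than in samples 1 and 2 at both ages, 1.26-fold at 4 weeks and 1.89-fold at 1 week in mean deposited signal. AT5G05400 was 1.42-fold higher in samples 3 and 4 than in samples 1 and 2 at 1 week, and 1.02-fold at 4 weeks, where samples of both pairs overlapped. This order was frequent, since samples 3 and 4 both lay above samples 1 and 2 in 30.1% of rows at 4 weeks and in 32.5% at 1 week. On the normalized log2 scale the signed gap, samples 3 and 4 minus samples 1 and 2, was 0.97 for AT3G04210 at 1 week. It was above the signed gap of 94.8% of rows. For AT5G05400 at 1 week the signed gap of 0.38 was above that of 78.2% of rows. Rows with a gap in the other direction count as lower here, so these shares do not rank the gaps by size. At 1 week 36.3% of rows had samples 3 and 4 both below samples 1 and 2.

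The size of the age difference also varied with the sample number. The signal of AT3G04210 at 4 weeks was 8.38-fold, 6.24-fold, 4.93-fold and 4.53-fold that at 1 week in numbers 1 to 4. For AT5G05400 the signal at 1 week was 7.37-fold, 6.43-fold, 11.3-fold and 8.22-fold that at 4 weeks in numbers 1 to 4. The smaller ratios thus belonged to numbers 3 and 4 for AT3G04210 and to numbers 1 and 2 for AT5G05400. The direction was the same in all numbers for both genes, as it must be where the ages do not overlap.

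A further TIR-NBS gene, AT1G72890, had the opposite pattern to AT3G04210. Its deposited signal was listed at 0 in samples 1, 2 and 4 of the 4-week-old plants and was 0.0188 in sample 3. In samples 1 to 4 of the 1-week-old plants it was 0.347, 0.268, 0.347 and 0.339. The ages did not overlap, and the younger plants had the higher signal, as for AT5G05400. An exact two-sided permutation test over the samples gave p = 0.0286, the smallest that 70 assignments of 4 against 4 samples allow. These assignments treat the 8 samples as exchangeable. With the ages swapped only within sample numbers, the exact two-sided p was 0.125, the smallest that 16 assignments allow.

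With so many 0s this row was not in the fit described above. In a fit that keeps 0s by adding a pseudocount of 0.0777, its difference on the log2(signal + pseudocount) scale was −2.40 (SE 0.09, limma adjusted p = 1.35e-06). That scale understates the change of dim rows, and 41.7% of 3215 rows passed in the same fit. The listed 0s all become the same value once the pseudocount is added. The spread of this row at 4 weeks is thus largely set by the floor, and its SE and limma p-values may understate the variation between samples. The limma adjusted p was 8.06e-05 with the sample number as a block and 0.0120 after averaging samples 1 and 2, and likewise 3 and 4. These alternatives were chosen after seeing the data. AT1G72890 was above 0 in all 1-week samples and at 0 in 3 or more of the 4-week samples. Of the rows naming a single gene, it was the only 1 with this pattern, which was defined by its own values. Among all rows, whether named or not, 5 had the pattern. The reverse, above 0 in all 4-week samples and at 0 in 3 or more of the 1-week samples, was met by 9 rows. A row listed at 0 is not shown to lack the transcript.

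The remaining TIR-NBS gene on a row of its own, AT1G66090 (TN3), was listed at 0 in all 8 samples. The same held for 44 of the rows naming a single gene and for 222 rows in all. The 3 TIR-NBS genes with rows of their own thus showed a higher signal at 4 weeks, a higher signal at 1 week and no signal above 0 in any sample.

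Other rows of the class name several genes each, so none of their signals can be assigned to 1 gene. The search covered 201 genes of the NBS and TIR class known from the genome, and 9 rows name only such genes. The rows were picked by their annotation after it had been read. Of these rows, 3 were listed at 0 in all 8 samples and 6 could be tested. By limma at an adjusted p under 0.05, 2 of the 6 rose, 2 fell and 2 did not pass, against the 25.3% and 20.4% of all rows given above. Their median log2 difference was 0.20, beside 0.16 over all tested rows.

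Row 2445, which names 2 genes, fell. Its deposited signal was 1.43, 1.41, 1.26 and 1.43 in samples 1 to 4 of the 4-week-old plants, against 2.94, 3.16, 2.39 and 2.50 in those of the 1-week-old plants. The ages did not overlap, and the normalized log2 difference was −0.83 (SE 0.16, limma adjusted p = 0.00326). Row 2814, which names 3 genes, fell as well, with means of 0.373 ± 0.0614 at 4 weeks and 0.552 ± 0.0477 at 1 week (SD, n = 4 each; log2 difference −0.63, SE 0.13, limma adjusted p = 0.00536). On the log2 scale both differences were smaller in size than that of AT5G05400, a gene chosen for its difference.

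Row 3477 rose, with means of 1.12 ± 0.125 at 4 weeks and 0.737 ± 0.138 at 1 week (SD, n = 4 each; log2 difference 0.63, SE 0.18, limma adjusted p = 0.0229). Row 135 rose too, with means of 1.34 ± 0.194 at 4 weeks and 0.892 ± 0.218 at 1 week (SD, n = 4 each; log2 difference 0.65, SE 0.22, limma adjusted p = 0.0382). For row 135 the ages were barely separate, with a lowest signal of 1.072 at 4 weeks and a highest of 1.068 at 1 week. Samples 1 and 2 alone gave a log2 difference of 0.30, whereas 1.01 was obtained from samples 3 and 4. Row 4463, which names the same 2 genes as row 135, was among the rows listed at 0 in all samples, so rows of the same annotation disagreed.

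The rows that did not pass were 2417 and 1869. Row 2417 had 0.372 ± 0.0639 at 4 weeks and 0.417 ± 0.0952 at 1 week (SD, n = 4 each; log2 difference −0.22, SE 0.20, limma adjusted p = 0.388). Row 1869 was dim, with 0.0706, 0.0981, 0.0646 and 0.0962 in samples 1 to 4 at 4 weeks and 0.0209, 0.000614, 0.0921 and 0.0970 in those at 1 week. Its log2 difference of 2.09 (SE 1.63, limma adjusted p = 0.319) rested on sample 2 at 1 week and was 0.30 without it. Both genes of row 1869 are also named on row 2814.

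**Figure D3:**
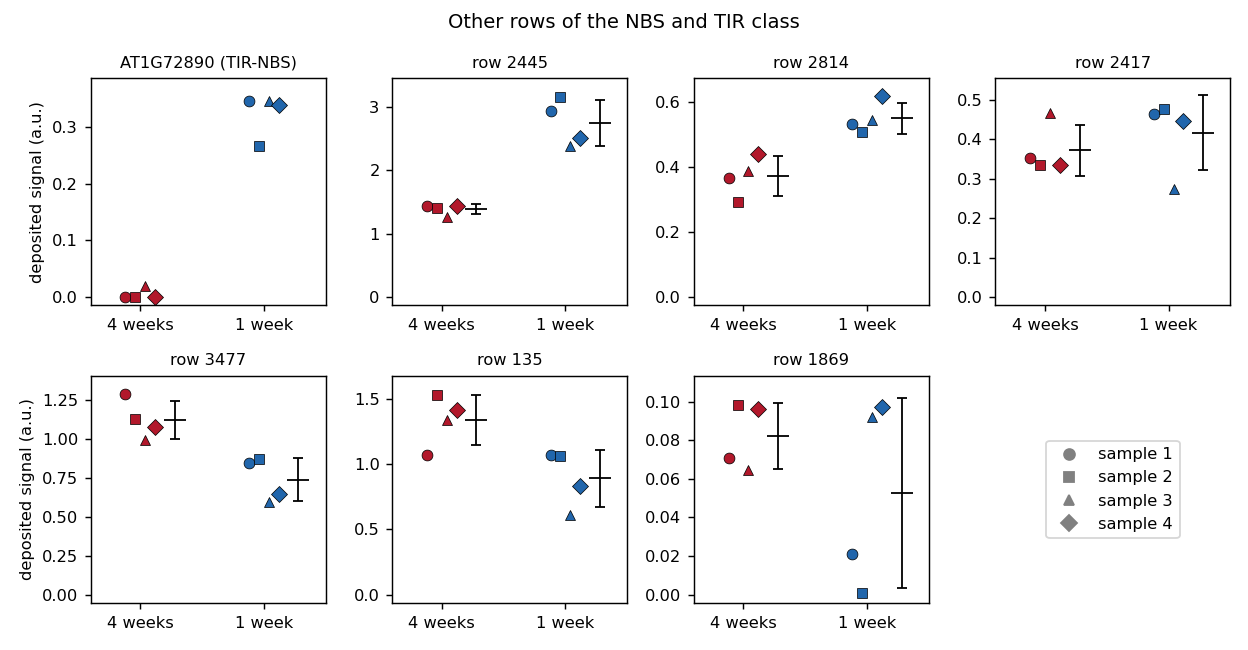
Deposited signal (arbitrary units) of AT1G72890 and of 6 rows that each name several NBS or TIR genes, at 4 weeks (left) and 1 week (right), 1 symbol per sample number, with mean and SD beside the points except for AT1G72890, where 0s are listed. AT1G72890, row 2445 and row 2814 are lower at 4 weeks, rows 3477 and 135 are higher, and the ages overlap in rows 2417 and 1869.

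The calls of these 4 rows depended on how the likeness of samples 1 and 2, and of samples 3 and 4, was treated. With each such pair averaged before the fit, the limma adjusted p was 0.108 for row 2445, 0.135 for row 2814, 0.207 for row 3477 and 0.203 for row 135. That fit called 400 of 2924 rows, against 1337 without averaging. The range over every alternative tried was 0.000371 to 0.108 for row 2445, 0.00297 to 0.135 for row 2814, 0.00543 to 0.207 for row 3477 and 0.0151 to 0.308 for row 135. Single samples mattered for the rises. For row 3477 the limma adjusted p was 0.0606 when 4-week sample 1 was left out and 0.0547 when 4-week sample 2 was. It was 0.0579 with 1-week sample 3 left out and 0.0594 with 1-week sample 4 left out. For row 135 it was 0.0929, 0.0729 and 0.0791 when 4-week sample 2, 3 or 4 was dropped, and 0.0736 and 0.0869 when 1-week sample 3 or 4 was. Median centring gave 0.0528 for row 135.

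Few of the other immune genes searched for had a row of their own. Lists of 119 genes covered TIR-NBS and NBS-LRR receptors, helper receptors, the EDS1 and NDR1 branches that relay their signal, salicylic acid, jasmonate synthesis in plastids, receptors of microbial patterns and chloroplast signalling. Of these, 4 genes had a row of their own, namely AT3G04210, AT5G05400, AT1G72890 and AT1G66090. Another 2 listed genes occurred on rows that name several genes. No listed gene for a signalling partner or hormone step had a row of its own. The lists do not cover every immune gene.

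Many receptor genes of this class lie in clusters, so the surroundings of the pair on the chromosomes were examined by gene order. None of the 20 nearest protein-coding genes of AT3G04210 on chromosome 3 (10 on each side) had a row of its own. Of the 20 around AT5G05400, 2 had one. PRA1.B3 (AT5G05380), a gene of the prenylated Rab acceptor family of membrane traffic proteins, lies 2 genes before AT5G05400. Its deposited signal was 1.18, 1.14, 1.203 and 1.26 in samples 1 to 4 of the 4-week-old plants, against 0.174, 0, 0.531 and 0.565 in those of the 1-week-old plants.

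PRA1.B3 thus rose while its neighbour AT5G05400 was lower at 4 weeks. The log2 difference of PRA1.B3 was 1.70 (SE 0.39, limma adjusted p = 0.0108), in a fit that left out 1-week sample 2, where the signal was listed at 0. Averaging samples 1 and 2, and likewise 3 and 4, raised the limma adjusted p to 0.0897, the highest among the alternatives. The lowest, 0.000826, came without 1-week sample 1, where the log2 difference of PRA1.B3 was smaller, 1.15. Its size of 1.70 thus leaned on the dim signal of that sample. The second neighbour, AT5G05330, was listed at 0 in all 1-week samples and in samples 2 and 4 at 4 weeks, with 0.0588 and 0.0541 in samples 1 and 3.

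Rows most like each receptor gene were ranked by Pearson's r of the normalized log2 signal over the 8 samples, among 563 other rows that name a single gene and were measured in every sample. Since all 8 samples share the split into ages, r mostly follows the age difference. The r of the deviations from the age means is therefore given beside it. It is not an independent check, because the r used for picking the rows also depends on these deviations. For AT3G04210 the leading genes were AT4G24910 (r = 0.988, and 0.940 for the deviations), AT5G52810 (0.985 and 0.812) and AT5G15280 (0.966 and 0.488). AT5G52810 is known as SARD4, a reductase in the synthesis of pipecolic acid, and AT5G15280 encodes a pentatricopeptide repeat protein.

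These genes differed less between the ages than AT3G04210, as most rows must, since that gene was chosen for its difference. AT4G24910 averaged 0.639 ± 0.101 at 4 weeks and 0.280 ± 0.0678 at 1 week (SD, n = 4 each), a log2 difference of 1.16. AT5G52810 averaged 1.75 ± 0.112 at 4 weeks and 1.12 ± 0.155 at 1 week (SD, n = 4 each), a log2 difference of 0.74. That of AT5G15280 was 1.61. Like AT3G04210, both AT4G24910 and AT5G52810 were higher in samples 3 and 4 than in samples 1 and 2 at each age. The r used for picking rows favours this order.

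For AT5G05400 the leading genes were AT2G13690 (r = 0.999, and 0.907 for the deviations), AT3G23940 (0.997 and 0.728) and AT1G06510 (0.994 and 0.622). AT3G23940 encodes dihydroxyacid dehydratase of branched-chain amino acid synthesis, and AT1G06510 a protein with a forkhead-associated domain. AT2G13690 averaged 0.450 ± 0.0197 at 4 weeks and 1.63 ± 0.254 at 1 week (SD, n = 4 each), a log2 difference of −1.80. Those of AT3G23940 and AT1G06510 were −1.13 and −3.63. The match was closest for AT2G13690, with 1-week signals of 1.46, 1.37, 1.84 and 1.85 in samples 1 to 4. Samples 3 and 4 lay above samples 1 and 2 there, as in AT5G05400. The deposited 1-week signals of AT3G23940 and AT1G06510 had this order as well. After normalization 32.5% of rows had it at 1 week, and the r used for picking rows favours it.

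**Figure D4:**
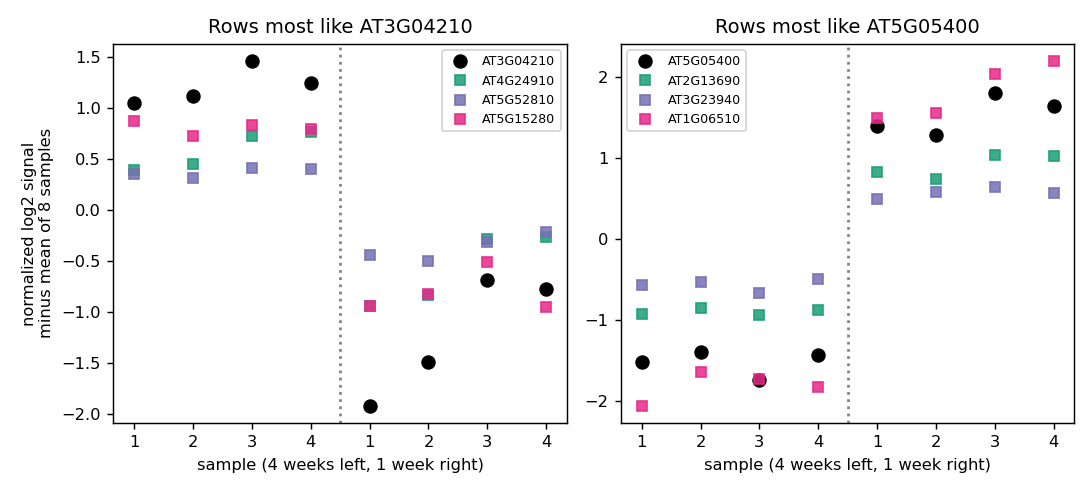
Normalized log2 signal minus the mean of the 8 samples, for each receptor gene (black circles) and the 3 single-gene rows with the highest Pearson r to it (coloured squares), by sample number at 4 weeks (left of the dotted line) and 1 week (right). AT3G04210 and its 3 rows are above 0 in all 4-week samples, AT5G05400 and its 3 rows below 0.

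The leaf makeup of the samples could be checked in part. Of 8 listed photosynthesis genes, 6 had a row of their own and none of these was at 0 in any sample. Their summed signal was 28.7 to 42.9 at 4 weeks and 27.7 to 49.6 at 1 week, so the ages overlapped, but PSBW and LHCB1.5 made up most of it. By limma 3 of the 6 rose with age (PRK, CHLM and PSAN) and none was called lower, against 25.3% of all tested rows that were higher and 20.4% that were lower at 4 weeks. The deposited signals of PSAN overlapped between the ages. PSBW and PSBY had positive differences that did not pass. For PSBW the normalized log2 difference was 0.60, while its deposited means were close, 21.8 ± 6.06 at 4 weeks and 21.2 ± 8.38 at 1 week (SD, n = 4 each). LHCB1.5 went the other way without passing, and its deposited signals did not overlap. Its means were 6.68 ± 1.34 at 4 weeks and 12.9 ± 2.85 at 1 week (SD, n = 4 each; log2 difference −0.46, limma adjusted p = 0.135). The signal of LHCB1.5 at 1 week was 1.93-fold that at 4 weeks in deposited means and 1.38-fold after normalization. For these bright rows the size of the difference thus depended on the normalization. No listed root, flower, seed or senescence marker had a row of its own. The part of organ makeup in the signals of the receptor genes was not tested.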

How the data were processed

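The authors deposited 1 array intensity on a linear scale for each of 3439 rows in 8 samples. For background correction and scaling, the steps are not given in the sources used here. All deposited intensities summed to 3070 to 3374 per sample, held 11.3% to 13.6% of exact 0s and ended at a ceiling of 100. Rows were named from the GEO platform annotation, updated by gene number with a RefSeq gene table (TAIR10.1). It gave 692 rows 1 gene (690 of them in the RefSeq table) and 870 rows several, with 1877 unnamed here. The array design's build is not named, so no coordinates are printed, and no sequences were used.

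Intensities were set to log2 with 0 as missing and quantile normalized, since array medians differed by up to 0.13. Rows with 3 measured samples per age were fitted with limma 3.58.1 in R 4.3.3 (lmFit, eBayes, Benjamini-Hochberg over all rows, threshold 0.05), leaving out 2 rows at the ceiling throughout. The fit was tested on simulated data. Members and lists were chosen with earlier results of these data known. The genes named were the pair, listed genes and class rows with their values, the 3 rows most like each member, and neighbours within 10 genes. Whether a gene is of the NBS or TIR class, and the roles given, come from general knowledge of the genome.

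Deviations of same-numbered samples from their age means correlated at 0.425 to 0.527 in all 4 pairs over 2814 rows. Samples of a number were therefore treated as pairs in an alternative fit. Unlike numbers also correlated between the ages, at 0.397 and 0.343 within samples 3 and 4. Within samples 1 and 2 these correlations were 0.229 and 0.180. The likeness was thus not only between samples of a number. Pairing by number rests on the data, since no label states it.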

Additional observations from a re-analysis of the deposited data

Results flagged for a closer look

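In 5 of 21 groups of 4 samples examined, 1 sample stood apart from the other samples of its age by Dixon's criterion for 4 values, which chance meets in about 1 of 20 groups. AT1G72890 had 0.0188 in 4-week sample 3 and 0 in the other samples of that age, a case that the 0s meet by construction and that says nothing of the sample. It had 0.268 in 1-week sample 2, below the 0.339 to 0.347 of the others. Row 2417 had 0.467 in 4-week sample 3, above the 0.334 to 0.352 of the others, and 0.275 in 1-week sample 3, below the 0.448 to 0.479 of the others. Row 2445 had 1.26 in 4-week sample 3, below the 1.41 to 1.43 of the others. No sample of AT3G04210 or AT5G05400 stood apart in either age.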

How the results depend on the processing

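The log2 difference of AT3G04210 ran from 1.85 to 2.78 and that of AT5G05400 from −3.30 to −2.65 over 17 alternatives each, with no change of direction. Since the ages did not overlap in either gene, fits on fewer samples could hardly change the direction. With a pseudocount, which draws dim rows toward 0 by construction, they were 1.85 and −2.65. In samples 1 and 2 alone AT5G05400 had −2.79 and in samples 3 and 4 alone −3.30. Without any 1 sample AT3G04210 ran from 2.19 to 2.57 and AT5G05400 from −3.12 to −2.92. With the sample number as a replicate block they kept 2.43 (SE 0.18) and −3.05 (SE 0.16), and the block changed no call of a class row or of PRA1.B3. The count of rows called, 1337, ran from 400 to 1656 and was 400 after averaging samples 1 and 2, and likewise 3 and 4, a fit with fewer values. Without any 1 sample it ran from 1078 to 1290. Of the defence list genes other than the pair, 0 could be tested in the fit without a pseudocount and 1 of 1, AT1G72890, was called with it. Its limma adjusted p with a pseudocount was 8.06e-05 under the replicate block and 0.0120 with those samples averaged, and the other alternatives gave it no value. The 0s at 4 weeks limit what these p-values measure. In samples 3 and 4 alone, row 1869 had −0.55 (limma adjusted p = 0.0479) and row 2417 0.052 (0.901), both reversed, and the cause was not tested. Row 2417 passed in samples 1 and 2 alone, at −0.49 (0.0244), and had −0.39 (0.0787) without 1-week sample 3, against −0.22 with all samples. Fits on samples 1 and 2 or 3 and 4 alone rest on the samples most alike within an age, whose spread may be technical. They called 1273 of 2867 and 1404 of 2870 rows. Over all alternatives their adjusted p ran from 0.0479 to 0.872 and from 0.0244 to 0.901. The median log2 difference of all rows was 0.21 as deposited and 0.16 after median centring. Precision is in general limited at the dim end, where the signal of AT3G04210 at 1 week and of AT5G05400 at 4 weeks lies. The coefficient of variation of AT5G05400 was nonetheless lower at 4 weeks, 9.81%, than at 1 week, 20.6%.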
